A study of Mus musculus with 53 samples.

Results

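NIH-3T3 cells that carried an empty vector were compared between day 2 (d2) and day 4 (d4) of a hormone course that starts adipocyte differentiation. The arrays were chosen by their titles, 4 vector d2 arrays and 7 vector d4 arrays, which are 11 of the 53 arrays of the series. NIH-3T3 is an immortalised line of mouse embryonic fibroblasts, and these cells received the transduction but no added transcription factor. The hormones and their doses are not named in the labels, and whether the transduced cells were a pool or a clone is not stated. Total RNA of vector cells was also measured at d0 (4 arrays) and d10 (3 arrays), and the same hormone course was run in cells carrying PPARg2, the isoform of the nuclear receptor PPAR-gamma found in fat cells, or EBF1, a zinc finger factor named for its part in early B cells (4 arrays each at d2 and 7 each at d4). Per the labels, the series drew on 7 separate hormone stimulations, without saying which array came from which, so the p-values below measure the spread between arrays.

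Adipocyte differentiation of fibroblast lines runs in steps. Hormones first raise the factors C/EBP-beta and C/EBP-delta, these raise PPAR-gamma and C/EBP-alpha, and the latter pair then switches on the genes of lipid uptake, lipid storage and hormone secretion that define a fat cell. NIH-3T3 cells are known to go through this course poorly unless one of these factors is supplied. The same hormones, among which a glucocorticoid, insulin and an agent that raises cAMP are usual, act on many genes outside that course, so that early time points hold a hormone response beside the differentiation itself.

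Each RNA was read on an Affymetrix MG_U74Av2 array, on which a probe set of short oligonucleotides reports 1 transcript as an intensity on a linear scale. Intensities under 54.5, the 20th percentile of all values, were set to that floor before log2 was taken. Each gene was represented by its brightest probe set, and a gene passed the test at an adjusted p below 0.05 in limma. Array means ran from 309 to 338 over the 11 arrays. The arrays were put into 3 groups, called sessions, by the year and month of a date in their experiment files. What that date records is not stated. The 4 d2 arrays lay in sessions 1 and 2, 2 in each, and so did 4 of the d4 arrays, while the other 3 d4 arrays made up session 3. No d2 array shared a recorded date with a d4 array, so that date and day cannot be told apart within a session. One sign of RNA or labelling quality moved with the day: the 3′ to 5′ signal ratio of the Gapdh control probe sets was 0.901 to 1.02 at d2 and 0.810 to 0.883 at d4, whereas that of actin overlapped (1.14 to 1.41 and 1.23 to 1.41). The part of this ratio in the results was not tested. 3 arrays deviated together from their groups over all genes, namely d2 replicate 4 and d4 replicates 1 and 4, with pairwise correlations of 0.67 to 0.77 between their deviations. Their 20th percentiles, 58.1 to 60.3, lay above those of the other 8 arrays (49.0 to 57.7). Results were computed with and without these 3 arrays and the 3 arrays of session 3.

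From d2 to d4, 18 of 31 fat cell markers, 13 of 27 genes of fatty acid oxidation and 12 of 38 of the respiratory chain rose, and 8 of 17 genes of the acute phase, cytokines and chemokines fell. Without session 3 these 4 counts were 18, 12, 4 and 7. Of 5761 genes tested, 430 rose (7.46%) and 272 fell (4.72%), and in 243 of the rises (4.22% of genes tested) and 114 of the falls (1.98%) no d4 array overlapped a d2 array. Most of the changes were small: 53 of the genes that rose did so by at least 2-fold, and 26 of those that fell did so by at least 2-fold. The median log2 difference was 0.52 among the genes that rose and -0.45 among those that fell, against -0.01 over all genes tested. Without the 3 arrays of session 3, 662 of 7619 probe sets passed instead of 915 (12%), with 374 higher instead of 565 and 288 lower instead of 350, and without the 3 arrays that deviated together 970 passed. Of the 702 genes that passed, 418 passed in the same direction without session 3, and all 702 kept their direction there. The arrays left in that fit had also served to choose the 702 genes, so the shared direction is no independent support.

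**Figure D1:**
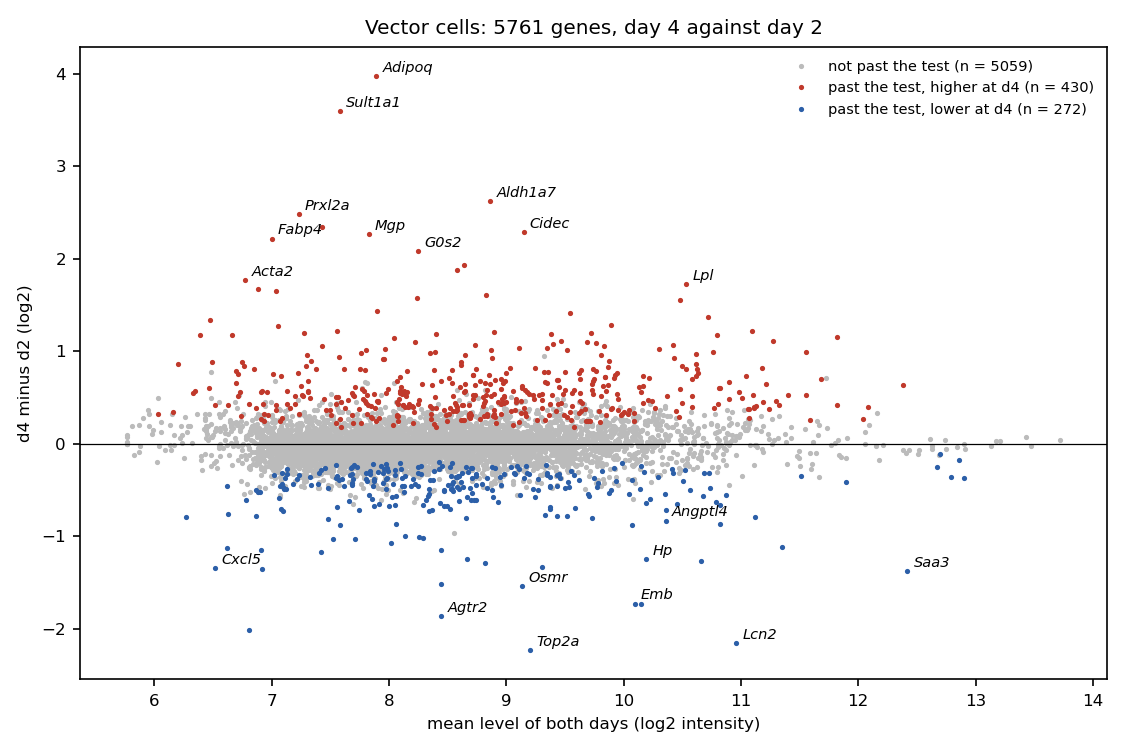
Difference between d4 and d2 in vector cells (log2, vertical axis) against the mean level of both days (log2 intensity, horizontal axis) for 5761 genes, with genes past the test in red (430 higher) and blue (272 lower). Adipoq and Sult1a1 stand highest, at 3.98 and 3.60, and Top2a and Lcn2 lowest, at -2.23 and -2.15.

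Genes of the differentiated fat cell rose more often than genes at large. Of 31 adipocyte markers tested (38 listed, 32 of them on the array), 18 rose and 1 fell, with a median log2 difference of 0.77, where 7.46% of all genes rose. The same 18 to 1 split was found without session 3, without the 3 arrays that deviated together, and with the replicate number as a block. The session 3 arrays have no d2 array of their number. The block thus draws its differences from the same arrays as the fit without session 3 and is no separate check. The markers that rose spanned secreted hormones, enzymes of lipid uptake, lipid droplet proteins and an anaplerotic enzyme. Adipoq encodes adiponectin, the hormone that fat cells secrete in the largest amount. Its intensity was 54.4, 42.5, 54.7 and 81.8 on the d2 arrays, with 2 of the 4 at the floor, and 751, 959 and 1328 (lowest, median and highest) on the 7 d4 arrays. No d4 array came near any d2 array, and the difference was 3.98 ± 0.20 on the log2 scale (SE, adjusted p = 3.92e-20), or 15.8-fold with the floor in place. The level stood at 37.9 at d0 and at 880 at d10, against 964 at d4.

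Lpl, the lipoprotein lipase that frees fatty acids from circulating lipoproteins, was 782, 824, 838 and 809 at d2 and 2089, 2780 and 3184 at d4. Its arrays did not overlap (log2 difference 1.72 ± 0.11, adjusted p = 4.25e-16), and its second probe set gave 1.95. Cidec, a lipid droplet protein that promotes droplet fusion, was 275, 234, 236 and 273 at d2 and 834, 1330 and 1594 at d4, again with no overlap. Its difference was 2.28 ± 0.15 (adjusted p = 4.96e-16), and the mean fell back from 1264 at d4 to 441 at d10. Fabp4, the fatty acid carrier of fat cells, spread more between arrays. It was 56.6, 66.0, 27.6 and 20.2 at d2, with 2 arrays at the floor, and 172, 226 and 619 at d4 (2.22 ± 0.32, adjusted p = 9.64e-07). The lowest d4 array still lay above the highest d2 array, while the mean at d10 was 78.9.

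Further markers moved the same way. The 8 risers of this list that are not described one by one rose by 0.42 to 1.61 on the log2 scale, and the 12 markers that did not pass lay between -0.28 and 0.50. Reep6, a membrane-shaping protein of the endoplasmic reticulum, rose from a mean of 75.6 ± 9.07 (SD, n = 4) to 391 ± 95.6 (SD, n = 7), a log2 difference of 2.34 ± 0.21. Agt, the angiotensin precursor, rose by 1.22 ± 0.14 to 3356 and was back at 295 at d10. Plin2, the droplet coat protein found in most cells that store lipid, rose by 0.77 ± 0.14. Angptl4, a secreted inhibitor of lipoprotein lipase, was the one marker that fell, by 0.83 on the log2 scale (SE 0.13, adjusted p = 3.66e-06), and although its mean went from 1759 to 978, the highest d4 array (1239) lay above the lowest d2 array (1227). Another Angptl4 probe set gave -0.89, and the dimmest one gave -0.08 and did not pass. Cd36, the fatty acid translocase, is another textbook marker and did not pass (-0.28 ± 0.17, adjusted p = 0.361). Its intensities overlapped, at 96.9 to 160 on d2 arrays and 77.3 to 141 on d4 arrays.

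**Figure D2:**
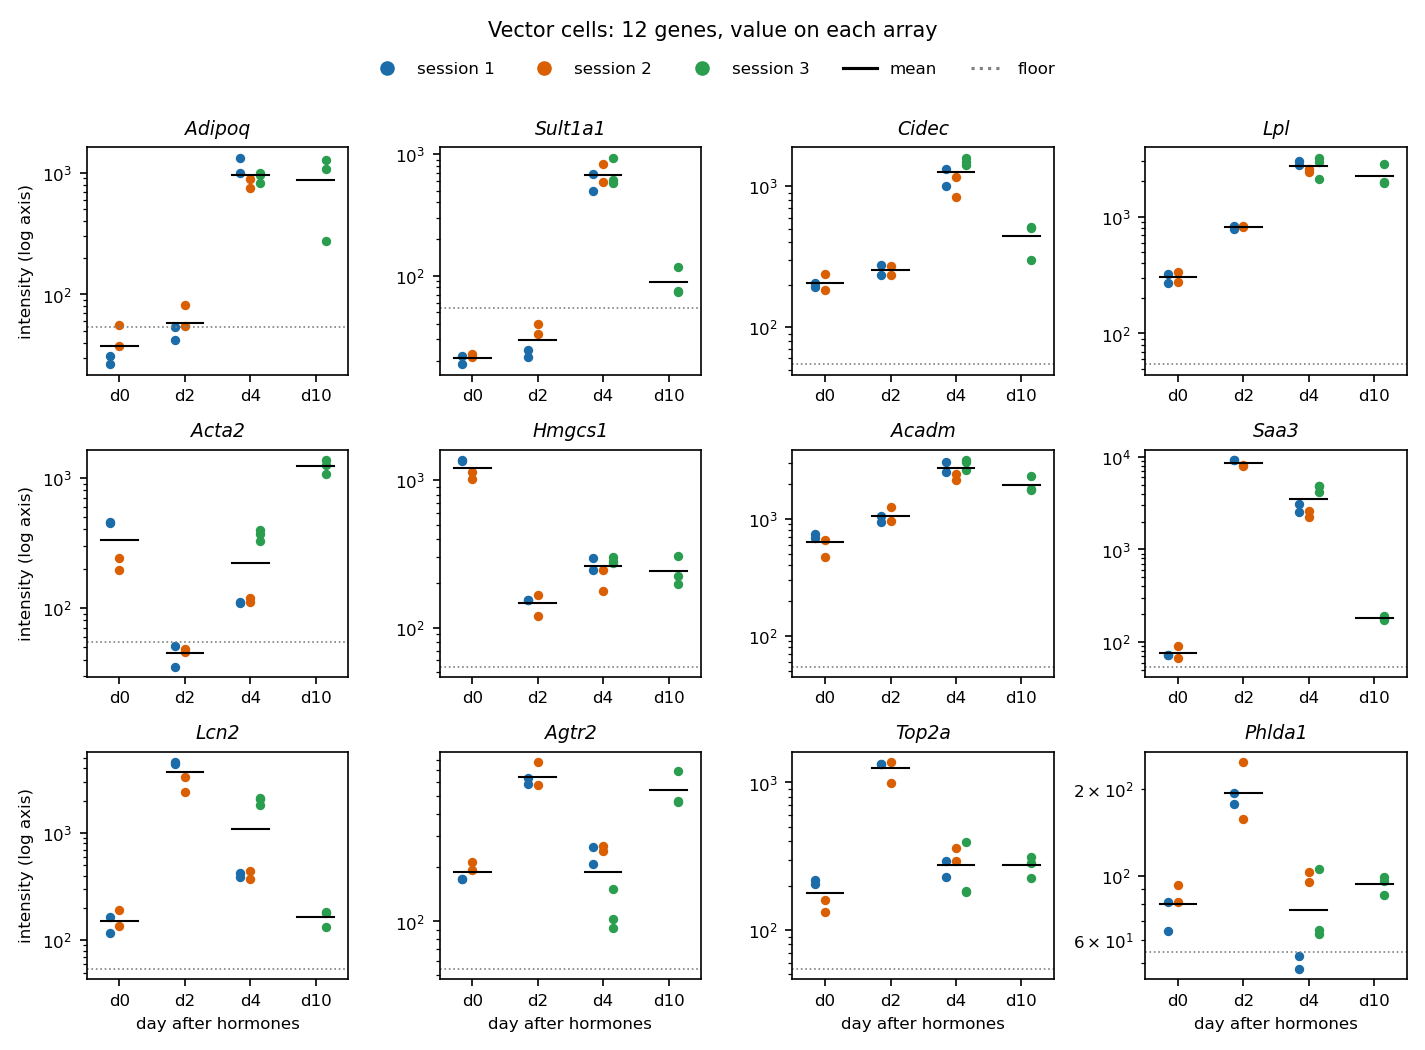
Intensity on each vector array (log axis) of 12 genes on d0, d2, d4 and d10, with points coloured by session, a bar for the group mean and a dotted line at the floor of 54.5. Adipoq, Sult1a1, Cidec and Lpl separate d2 from d4 fully, and the 3 session 3 arrays of d4 stand apart from the other 4 in Acta2 (324 to 397 against 109 to 118) and Lcn2 (1815 to 2101 against 373 to 439).

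Some of the transcription factors that drive this course passed the test between the same days. Of 14 adipogenic factors tested, 3 rose and 1 fell, where 7.46% of all genes rose and 4.72% fell. The median log2 difference of the list was 0.17, and with the replicate number as a block 5 rose and 2 fell. Without d2 replicate 1, 2 or 3 or d4 replicate 2 or 5, 2 rose and none fell. Pparg, the nuclear receptor that is the master regulator of fat cells, was dim: 74.8, 66.7, 77.6 and 58.7 at d2 and 73.5, 82.2 and 96.3 at d4. The days overlapped and the difference of 0.29 ± 0.15 did not pass (adjusted p = 0.244), although with the replicate number as a block it did (0.34, adjusted p = 0.0190). Its mean had been 19.6 at d0, under the floor, and was 23.6 at d10. Cebpa, the partner of Pparg in the terminal step, differed by -0.05 ± 0.18, with arrays at 111 to 162 on d2 and 97.2 to 192 on d4. Cebpb and Cebpd encode the early factors. Cebpb did not pass (-0.16 ± 0.17), and Cebpd fell by 0.48 on the log2 scale (SE 0.16) with an adjusted p of 0.0475, from a mean of 1996 to 1458. That call did not hold without the 3 arrays that deviated together (adjusted p = 0.129), nor without any 1 of d2 replicates 1 to 3 and d4 replicates 1, 2, 4, 5 and 6, with differences between -0.50 and -0.37. Klf4, a zinc finger factor that acts early in adipogenesis, rose by 0.80 ± 0.16, with some overlap (322 as the highest at d2 and 292 as the lowest at d4). Stat5a, a signal transducer of growth hormone and prolactin receptors, rose by 0.34 ± 0.07, while its second probe set gave 0.13 and did not pass. Endogenous Ebf1 differed by 0.32 ± 0.15 and did not pass (adjusted p = 0.181), although it did with the replicate number as a block (0.29, adjusted p = 0.0209).

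None of 17 inhibitors of adipogenesis passed in limma at an adjusted p below 0.05, where 7.46% of all genes rose and 4.72% fell. An unadjusted p below 0.05 was found for 3 of them, and the median log2 difference was -0.03. With the replicate number as a block 4 of them fell, and without session 3 there were 2 that fell. Dlk1, the preadipocyte surface protein that is usually lost when fat cells form, was 3343, 3689, 4701 and 4423 at d2 and 3320, 5359 and 6138 at d4. The days overlapped and the difference of 0.34 ± 0.13 pointed upward without passing (adjusted p = 0.0912). It passed without the 3 arrays that deviated together (0.49, adjusted p = 0.0135), and also without d4 replicate 1 (0.44) or d4 replicate 2 (0.39). The mean level had been 6418 at d0 and was 10100 at d10.

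Lipid synthesis moved in part, where 7.46% of all genes rose and 4.72% fell. Of 18 genes of fatty acid and triglyceride synthesis, 5 rose and none fell, with a median log2 difference of 0.14, and without the 3 arrays that deviated together 6 rose and 2 fell. Thrsp, a nuclear protein that accompanies lipogenesis, rose by 1.28 ± 0.24, from 72.9 to 109 on d2 arrays to 161 to 257 on d4 arrays. Slc25a1, which exports citrate from mitochondria for fatty acid synthesis, rose by 1.03 ± 0.14, from a mean of 453 to 937. Fasn, the fatty acid synthase, was 570, 594, 625 and 464 at d2 and 700, 876 and 1011 at d4, without overlap (0.62 ± 0.11, adjusted p = 2.37e-05). It had stood higher, at 1141, at d0. Gpd1, the glycerol phosphate dehydrogenase that supplies the backbone of triglycerides, rose by 0.63 ± 0.17 (adjusted p = 0.00957), while its dimmer probe set gave 0.37 and did not pass. Without d2 replicate 3 Gpd1 itself did not pass (0.55).

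Of 14 genes of cholesterol synthesis and uptake, 5 rose and 1 fell, where 7.46% of all genes rose and 4.72% fell. Their median log2 difference was 0.23. These enzymes are driven by the SREBP factors when cellular sterol is low. Their rise came from very low d2 levels. Hmgcs1, which makes the precursor of mevalonate, was 153, 153, 166 and 120 at d2 and 179, 276 and 303 at d4. The arrays did not overlap (0.81 ± 0.15, adjusted p = 5.54e-05), yet the d4 mean of 261 stayed far under the 1222 of d0, and d10 was at 244. Idi1, the isomerase of the isoprenoid building blocks, showed the same order of levels, with 1243 on the first day, 80.7 at d2 and 137 at both d4 and d10 (0.75 ± 0.18 between d2 and d4, adjusted p = 0.00257). With the floor raised to the 40th percentile, 115, its difference fell to 0.25 and did not pass. Msmo1, a sterol methyl oxidase, rose by 0.98 ± 0.18, and Fdps, the farnesyl diphosphate synthase, by 1.10 ± 0.25. Fdps had been at 3081 at d0 and was 201 at d2 and 444 at d4, and 1 of its other probe sets gave -0.26 and did not pass. Ebp, a sterol isomerase, was the one that fell, by 0.54 on the log2 scale (SE 0.17, adjusted p = 0.0273). With the replicate number as a block its difference was -0.52 and did not pass (adjusted p = 0.155), and it did not pass either without session 3 (adjusted p = 0.111), without d2 replicate 1 (-0.43) or without d2 replicate 2 (-0.33).

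The promoters of 3 of these enzymes and of Adipoq are shown to let a reader see where the known elements of such genes lie, or are missing, in the RefSeq sequences. Each line gives the 250 bases before the RefSeq start on GRCm38.p6, 5′ to 3′ on the gene's strand, with matches to 7 searched motifs in capitals. The motifs, searched on both strands, were TCACNCCAC (a sterol regulatory element), CCAAT (the box bound by NF-Y), TTNCGNAA (bound by C/EBP factors), TTTGAA (a cell cycle element), TATAAA, the PPAR/RXR direct repeat and the glucocorticoid element. They are found in 1.05%, 33.8%, 2.04%, 16%, 12.4%, 0.0335% and 0.387% of 32851 RefSeq promoter windows of this length. Hmgcs1 lies at chr13:119690101-119690350 on the plus strand, Idi1 at chr13:8885356-8885605 on the plus strand, Msmo1 at chr8:64733579-64733828 on the minus strand and Adipoq at chr16:23146286-23146535 on the plus strand.
Hmgcs1: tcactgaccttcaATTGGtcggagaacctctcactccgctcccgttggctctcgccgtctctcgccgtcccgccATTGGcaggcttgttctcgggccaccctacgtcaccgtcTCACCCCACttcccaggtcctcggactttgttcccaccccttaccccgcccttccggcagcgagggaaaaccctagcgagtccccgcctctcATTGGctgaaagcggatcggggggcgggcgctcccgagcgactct
Idi1: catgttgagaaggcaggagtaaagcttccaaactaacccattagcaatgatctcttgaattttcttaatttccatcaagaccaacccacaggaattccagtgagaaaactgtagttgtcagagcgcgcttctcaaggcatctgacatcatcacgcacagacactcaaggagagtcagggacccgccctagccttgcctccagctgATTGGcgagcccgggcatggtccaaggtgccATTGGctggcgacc
Msmo1: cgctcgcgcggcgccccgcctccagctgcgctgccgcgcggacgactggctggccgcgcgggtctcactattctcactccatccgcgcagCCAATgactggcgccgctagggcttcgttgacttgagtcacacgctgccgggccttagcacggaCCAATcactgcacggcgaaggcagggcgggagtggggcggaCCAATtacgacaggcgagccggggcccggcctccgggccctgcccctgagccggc
Adipoq: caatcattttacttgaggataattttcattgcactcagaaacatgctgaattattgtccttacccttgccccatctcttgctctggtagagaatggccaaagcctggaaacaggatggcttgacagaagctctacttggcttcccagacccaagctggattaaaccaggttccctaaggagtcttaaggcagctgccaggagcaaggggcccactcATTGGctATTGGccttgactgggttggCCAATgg
In Hmgcs1 the capitals mark 1 sterol element and 3 CCAAT boxes, in Idi1 2 CCAAT boxes, and in Msmo1 and Adipoq 3 each. All 11 genes of the cholesterol list that were tested and have a promoter in the RefSeq table held a CCAAT box in at least 1 such window, the genes that did not pass and Ebp included. Over all 4625 tested genes with a promoter, 41% did. The sterol element was found in 1 of the 11, Hmgcs1. None of these genes, nor Adipoq in the window shown, held a match to the other 5 motifs, and no 2 matches overlapped.

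Genes that burn fatty acids rose too, in part, where 7.46% of all genes rose and 4.72% fell. Among the 27 tested genes for oxidising fatty acids in mitochondria and peroxisomes, 13 were higher and 2 lower, with a median log2 difference of 0.42, and without session 3 the split was 12 to 1. Acadm, the medium-chain acyl-CoA dehydrogenase, was 934, 1057, 1250 and 949 at d2 and 2130, 2593 and 3183 at d4. Its arrays were far apart and the difference was 1.37 ± 0.11 (adjusted p = 3.69e-13). Etfa, which passes electrons from these dehydrogenases to the respiratory chain, rose by 1.20 ± 0.17, and Acaa2 and Eci1, the thiolase and enoyl isomerase of the same spiral, by 0.97 ± 0.13 and 0.77 ± 0.15. Cpt1a, the carnitine transferase that admits fatty acids to mitochondria, went the other way. It was 945, 1048, 936 and 702 at d2 and 428, 526 and 599 at d4, with no overlap, and fell by 0.78 on the log2 scale (SE 0.12, adjusted p = 4.57e-06).

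Of 25 genes of the citrate cycle and pyruvate metabolism, 10 rose and none fell, where 7.46% of all genes rose and 4.72% fell. Their median log2 difference was 0.32. Pcx, the pyruvate carboxylase that refills the cycle, was 438, 472, 491 and 422 at d2 and 985, 1230 and 1488 at d4. This separation of the days gave 1.42 ± 0.13 (adjusted p = 7.63e-12), but a dimmer probe set of Pcx gave 0.17 and did not pass. Pdhb, a subunit of pyruvate dehydrogenase, rose by 1.11 ± 0.17 and Suclg1, of succinyl-CoA synthetase, by 0.71 ± 0.15. Of 38 genes of the respiratory chain and ATP synthase, 12 rose and none fell, and 35 had a difference above 0, against 2702 of the 5761 genes tested. Cycs, cytochrome c, rose by 0.80 ± 0.17, from a mean of 599 to 1061, Ndufa9 of complex I by 0.73 ± 0.16 and Uqcrc1 of complex III by 0.64 ± 0.15. The count for the respiratory chain depended on the arrays used: it was 4 without session 3, 3 without d2 replicate 4, 6 without d2 replicate 1, 6 without d4 replicate 5, 7 without d4 replicate 6 and, without d4 replicate 1, 17 higher and 2 lower. With the spread taken from the vector d2 and d4 arrays only, the respiratory chain count was also 4, and it was 1 in session 1 alone and 0 in session 2 alone. The citrate cycle count was 5 without d2 replicate 4. Sdhb, a subunit of succinate dehydrogenase, rose by 0.81 ± 0.21 over all arrays and did not pass without session 3 (0.60, adjusted p = 0.122) or without d2 replicate 4 (0.61).

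**Figure D3:**
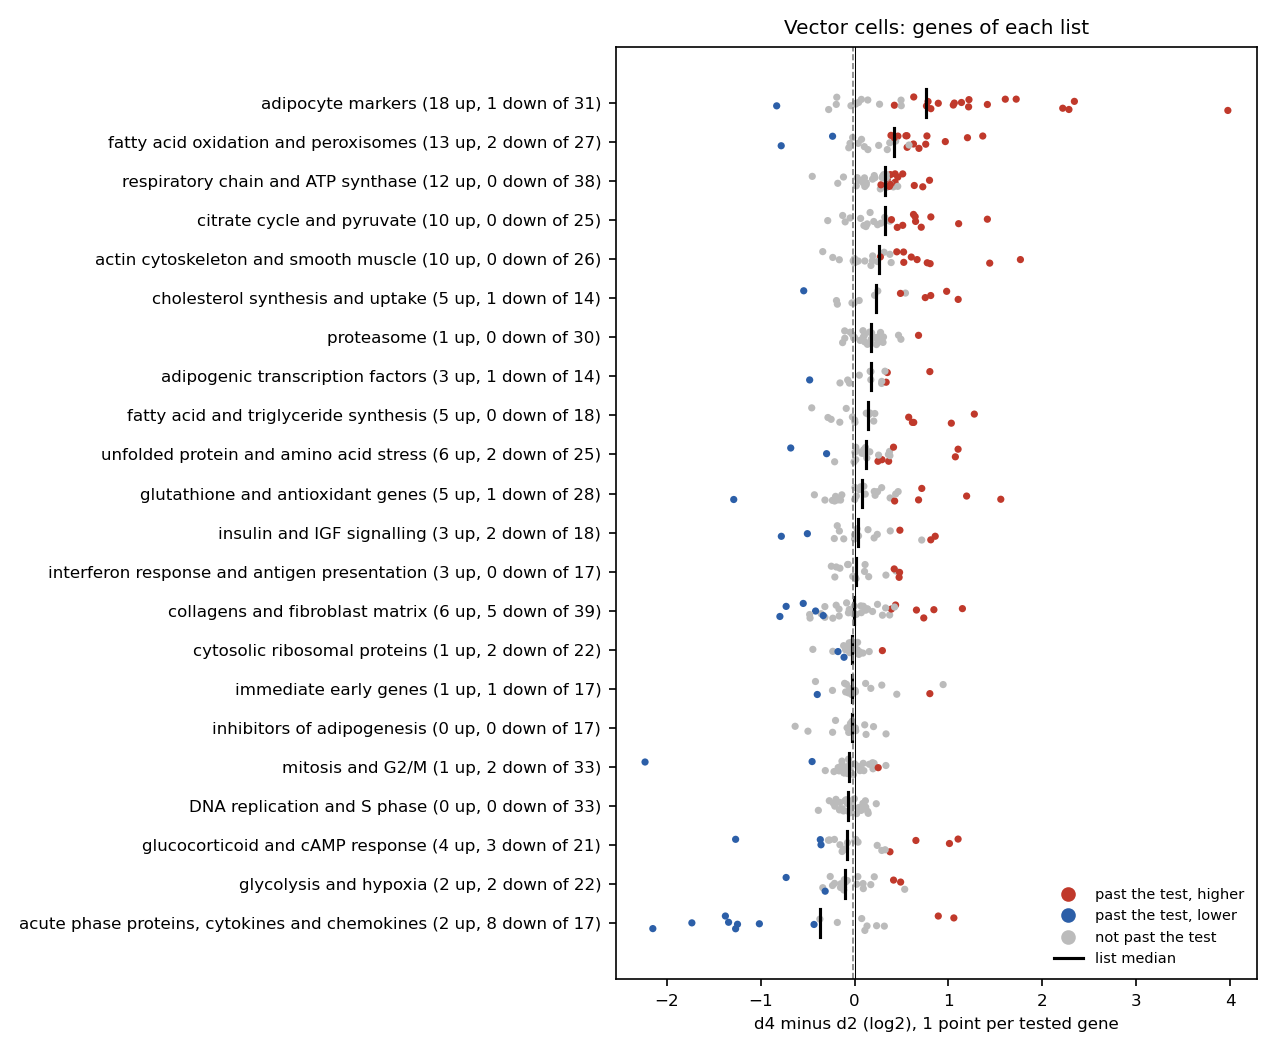
Difference between d4 and d2 (log2) of each tested gene, 1 point per gene, in 22 lists ordered by their median (black bar), with genes past the test in red and blue and the dashed line at the median of all genes, -0.01. Adipocyte markers stand at the top with a median of 0.77 and acute phase proteins, cytokines and chemokines at the bottom with -0.37.

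Secreted proteins of the acute phase, which fibroblasts make in response to cytokines and hormones, fell in part. Of 17 such genes, cytokines and chemokines included, 8 fell and 2 rose, with a median log2 difference of -0.37, where 4.72% of all genes fell. Without session 3 the split was 7 and 2. Saa3, a serum amyloid protein made outside the liver, was 9125, 9228, 7930 and 8259 at d2 and 2216, 3110 and 4879 at d4. The days did not overlap (-1.38 ± 0.27, adjusted p = 0.000153), and with means of 75.4 at d0 and 182 at d10 the d4 level was partway down. Saa2 fell by 1.73 on the log2 scale (SE 0.29) with no overlap, while its second, dim probe set gave -0.04, and its near-identical copy Saa1 may share the signal. Lcn2, the iron-siderophore binding lipocalin, was 4379, 4537, 3295 and 2416 at d2 and 373, 439 and 2101 at d4. It fell by 2.15 on the log2 scale (SE 0.39, adjusted p = 6.89e-05), and without session 3 the difference was -3.13.

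Serpina3n, a secreted protease inhibitor, went from 269 at d0 to 2532 at d2, 1038 at d4 and 340 at d10 (-1.27 ± 0.13 between d2 and d4). Sod2, the mitochondrial superoxide dismutase, went from 144 to 711, 286 and 182 (-1.29 ± 0.18). Both had no overlap between d2 and d4, and both were high at d2 against each of the other 3 days. Wfdc12, a secreted protein of the whey acidic protein family, fell by 1.33 on the log2 scale (SE 0.22). Sod2 and Wfdc12 are not in the acute phase list. Cxcl5, a chemokine that attracts neutrophils, was 217, 170, 132 and 95.7 at d2, and 6 of the 7 d4 arrays lay at the floor, for a fall of 1.34 on the log2 scale (SE 0.13). Hp and Ptx3, haptoglobin and pentraxin 3, differed between the d2 arrays themselves. Hp was 2867 and 3174 on the session 1 arrays of d2 and 945 and 776 on those of session 2, and its fall over all arrays was 1.25 on the log2 scale (SE 0.25, adjusted p = 0.000253). Ptx3 was 737 and 739 in session 1 and 236 and 177 in session 2 at d2. Its fall of 1.01 on the log2 scale (SE 0.29, adjusted p = 0.0130) did not pass without d2 replicate 1 (-0.71, adjusted p = 0.164) or without d2 replicate 2 (-0.70, adjusted p = 0.135). Cp, ceruloplasmin, and Orm1, an acid glycoprotein, rose instead, by 1.06 ± 0.15 and 0.89 ± 0.13.

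The largest falls without overlap also held genes of other roles. Osmr, the receptor subunit for oncostatin M, was 1130, 1059, 874 and 663 at d2 and 195, 254 and 622 at d4 (-1.54 ± 0.23). Il13ra1, a receptor chain for interleukins 4 and 13, was 188, 272, 279 and 178 at d2 and lay at the floor on 6 of the 7 d4 arrays (-2.01 ± 0.12 with the floor in place). Agtr2, the type 2 angiotensin receptor, fell by 1.86 on the log2 scale (SE 0.28) from 587, 630, 772 and 577, and it was high again at d10, at 540. In all 3 genes the days were fully separate. Emb, the cell adhesion protein embigin, fell by 1.73 (SE 0.15), Ugcg, the glucosylceramide synthase, by 1.51 (SE 0.14), Phlda1 by 1.36 (SE 0.17) and Ifitm1, an interferon-induced membrane protein, by 1.24 (SE 0.12), all on the log2 scale and without overlap. Socs3, a feedback inhibitor of cytokine receptors, fell by 0.50 on the log2 scale (SE 0.08), and its second probe set fell by 1.16.

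The largest rises held genes outside the fat cell lists. Sult1a1, a sulfotransferase of phenols, lay at the floor on all 4 d2 arrays (24.5, 21.5, 39.8 and 33.4 before the floor) and at 494, 616 and 931 on the d4 arrays. It was therefore at least 12.1-fold higher at d4, and its mean was 88.7 at d10. Aldh1a7, an aldehyde dehydrogenase very similar in sequence to Aldh1a1, was 184, 239, 167 and 149 at d2 and 715, 1146 and 1609 at d4 (2.63 ± 0.22), and 237 at d10. Both genes stood high at d4 only, among the 4 days measured. Prxl2a, a redox protein, rose by 2.48 ± 0.22, but its second probe set gave -0.11 and did not pass. G0s2, an inhibitor of the triglyceride lipase Pnpla2, rose by 2.08 ± 0.23, Cavin2, a coat protein of caveolae, by 1.94 ± 0.16, Clec3b, the secreted protein tetranectin, by 1.88 ± 0.17, and Akap12, a scaffold of protein kinase A, by 1.67 ± 0.15. Pqlc3 rose by 1.65 ± 0.13. Mgst3 and Mgst1, microsomal glutathione transferases, rose by 1.56 ± 0.16 and 1.19 ± 0.20. Of the 28 glutathione and antioxidant genes of their list, 5 rose and 1, Sod2, fell, where 7.46% of all genes rose and 4.72% fell.

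Contractile and matrix genes split, where 7.46% of all genes rose and 4.72% fell. Of 26 genes of the actin cytoskeleton and smooth muscle, 10 rose and none fell, with a median log2 difference of 0.26. Acta2, smooth muscle actin, lay at the floor on all 4 d2 arrays and was at least 3.40-fold higher at d4. Its d4 arrays differed by session, at 109 to 118 in sessions 1 and 2 and 324 to 397 in session 3, and without session 3 the difference was 1.04 in place of 1.77 on the log2 scale. At d0 and d10 its means were 335 and 1229. Cnn2, calponin 2, rose by 1.44 ± 0.17 and Vcl, vinculin, by 0.77 ± 0.17, with 0.82 from its second probe set. Of 39 collagens and other matrix genes, 6 rose and 5 fell, with a median log2 difference of 0.00. The falls were 8 without session 3, 9 with the replicate number as a block and 13 in session 1 alone, against 6, 6 and 5 rises. Col6a3, a chain of the collagen VI that surrounds fat cells, was 2542, 2684, 2452 and 2021 at d2 and 5004, 5342 and 5738 at d4. The days were well separated (1.15 ± 0.10, adjusted p = 1.20e-12). Pcolce, an enhancer of procollagen processing, rose by 0.74 ± 0.12, Lama4 by 0.66 ± 0.15, and Mgp, the matrix Gla protein that prevents calcification and is not in that list, by 2.27 ± 0.21. Fbln2, P4ha1, Lamc1 and Fn1, which encode fibulin 2, a prolyl hydroxylase of collagen, a laminin chain and fibronectin, fell by 0.80 (SE 0.16), 0.73 (SE 0.17), 0.55 (SE 0.10) and 0.42 (SE 0.09) on the log2 scale. Lox, the collagen cross-linking oxidase, rose by 0.85 ± 0.19 (adjusted p = 0.00102). Without session 3 its difference was 0.41. The replicate number as a block gave the same difference, which did not pass there (adjusted p = 0.128).

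Cell cycle genes were looked at as lists, where 7.46% of all genes rose and 4.72% fell. None of 33 genes of DNA replication and S phase passed in limma, with or without session 3, while 3 had an unadjusted p below 0.05, and 1 fell without the 3 arrays that deviated together. Of 33 genes of mitosis and G2/M, 1 rose and 2 fell, and without d2 replicate 1 only Top2a did. Top2a, the topoisomerase that untangles replicated chromosomes, was 1329, 1333, 1371 and 993 at d2 and 182, 292 and 393 at d4. No arrays overlapped and it fell by 2.23 on the log2 scale (SE 0.17, adjusted p = 2.50e-14), from a peak at d2 against 178 at d0 and 274 at d10. Mki67, the proliferation antigen Ki-67, was dim and did not pass (-0.13 ± 0.18), with 71.6 to 110 at d2 and 58.8 to 101 at d4. Pttg1, the separase inhibitor securin, fell by 0.45 on the log2 scale (SE 0.12), with overlap between the days, and did not pass without session 3 (adjusted p = 0.177) or without d2 replicate 1 (-0.36). A single probe set reports Top2a.

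Genes known to answer the hormones went both ways. Of 21 genes of the glucocorticoid and cAMP response, 4 rose and 3 fell, with a median log2 difference of -0.08, where 7.46% of all genes rose and 4.72% fell. Serpina3n, described above, is also in this list and was among those that fell (-1.27). Ddit4, a stress and glucocorticoid target that restrains mTOR, rose by 1.10 ± 0.12, from 489, 568, 706 and 486 at d2 to 897, 1281 and 1365 at d4. Sgk1, a kinase induced by glucocorticoids, rose by 1.01 ± 0.18 and Cdkn1a, the cell cycle inhibitor p21, by 0.65 ± 0.15. Fkbp5, the immunophilin of the glucocorticoid receptor, rose by 0.38 ± 0.09 to a mean of 2429, with the days touching at 2018, and its means at d0 and d10 were 446 and 346. Over all d4 arrays, each of the 4 had a mean above that of d0, Sgk1 by the least (923 and 1064). The Sgk1 d4 arrays ran from 577 to 745 in session 1 and from 852 to 1073 in session 2. In session 3, which holds no vector d0 array, they ran from 1372 to 1420. Outside that list, Crabp1, which binds retinoic acid in the cytoplasm, rose by 0.55 ± 0.13 from close to the floor, to 97.7, and was far under its d0 level of 1153. It did not pass without session 3 (0.39, adjusted p = 0.0533). Igfbp6 rose by 0.86 ± 0.17 and Igfbp4, which also binds insulin-like growth factors, fell by 0.78 on the log2 scale (SE 0.09). Psat1, of serine synthesis, rose by 1.07 ± 0.17, within a list of 25 stress genes of which 6 rose and 2 fell. That list was sensitive to single arrays, with 4 or 5 genes past the test without d2 replicate 1, 2 or 3 or d4 replicate 5, 6 or 7.

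The remaining lists are given as counts, where 7.46% of all genes rose and 4.72% fell. Interferon response and antigen presentation had 3 genes higher of 17, insulin and IGF signalling 3 higher and 2 lower of 18, glycolysis and hypoxia 2 and 2 of 22, cytosolic ribosomal proteins 1 and 2 of 22, immediate early genes 1 and 1 of 17, and the proteasome 1 higher of 30. Single arrays moved some of these counts: without d4 replicate 1, 5 interferon genes, 4 immediate early genes and 2 proteasome genes passed, without d4 replicate 4 also 2 proteasome genes, without d2 replicate 4 1 immediate early gene, and without d2 replicate 3 1 ribosomal gene. Markers of other cell types were looked at as lists. Of 11 fibroblast markers, all were above the floor on each of the 11 arrays, S100a4 rose (0.26 ± 0.08) and Fn1 fell. S100a4 did not pass without session 3, without d2 replicate 4 or without d4 replicate 7, and without d4 replicate 1 or 4, 3 markers rose. Their summed level was 18580 to 20650 at d2 and 17630 to 23490 at d4. None of the tested markers of skeletal muscle (6), bone and cartilage (4), macrophages (5), lymphocytes (7), endothelium (6), epithelium (3) and brown fat (2) passed in limma, with 5 of these 33 at an unadjusted p below 0.05. Of the markers with a probe set, 3 of 10 for macrophages (Ptprc, Lyz2 and Mrc1), 2 of 7 for epithelium (Krt18 and Epcam), 4 of 12 for skeletal muscle, 3 of 7 for brown fat, 1 of 9 for lymphocytes and none of those for endothelium (8) or bone and cartilage (6) lay at the floor on all 11 arrays. Others of the same lists were above it on all arrays, such as Cd68 (118 to 205), Csf1r (96.2 to 174) and Cd14 (228 to 405) of macrophages and Krt8 (261 to 414) and Krt5 (188 to 338) of epithelium. The summed level of the macrophage list was 1036 to 1285 at d2 and 917 to 1340 at d4, and that of the epithelial list 923 to 1143 and 801 to 1047. The part of such cells in the results was not tested. In whole cultures, fewer cells of a type and less RNA per cell cannot be told apart.

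Each session that held d2 arrays gave a comparison of its own, of 2 d4 arrays against 2 d2 arrays. In session 1 alone 321 probe sets were higher and 438 lower, and in session 2 alone 152 and 66. The leading genes had the same direction in both. Adipoq differed by 4.40 in session 1 and 3.62 in session 2, Lpl by 1.85 and 1.59, and Top2a by -2.36 and -1.85. Lcn2 differed by -3.46 and -2.80, and Saa3 by -1.71 and -1.75. Lox differed by 0.09 in session 1 and 0.74 in session 2, and Sgk1 by 0.29 and 1.02. Of the 702 genes past the test over all arrays, 700 had the same direction in session 1 and 696 in session 2. The genes were chosen on a fit that held these same arrays, so the shared direction is no independent support.

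**Figure D4:**
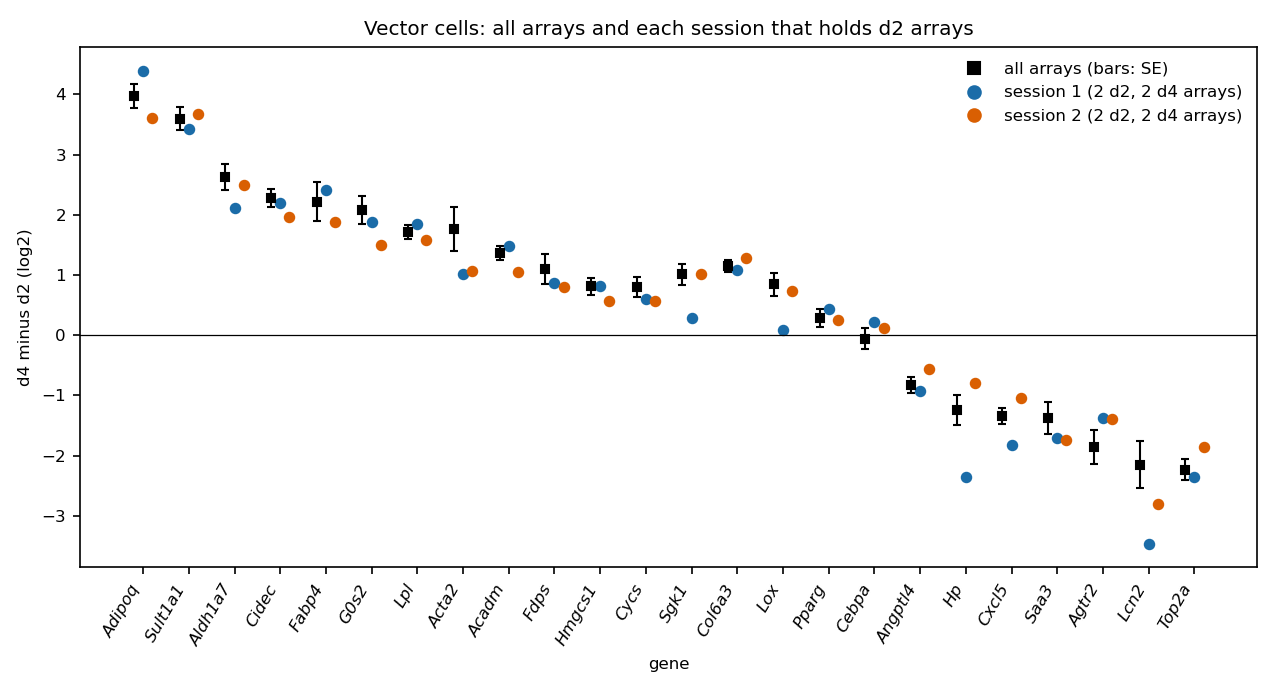
Difference between d4 and d2 in vector cells (log2) of 24 genes over all arrays (black squares, bars are the SE of the fit), in session 1 (blue) and in session 2 (orange), each session with 2 arrays a day. Adipoq stands at 3.98 over all arrays, 4.40 in session 1 and 3.62 in session 2, and Lox at 0.85, 0.09 and 0.74.

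The step from d2 to d4 was set against the same step in cells carrying PPARg2 or EBF1, to ask where vector cells differ. The difference of the steps was tested as an interaction in the same fit. With EBF1, 103 genes rose more or fell less than in vector cells (1.79%) and 93 rose less or fell more (1.61%). With PPARg2 these were 28 genes (0.486%) and 2 genes (0.0347%). The steps share the vector arrays. Over probe sets the counts were 253 for EBF1 (3.32%) and 43 for PPARg2 (0.564%). The count for EBF1 was 607 with the replicate number as a block. Over all arrays 134 of its probe sets were higher and 119 lower. With that block 464 of the 607 were higher, without session 3 the split was 212 and 75, and without vector d2 replicate 4 it was 183 and 66. The count for PPARg2 went from 10 without vector d2 replicate 1 or without PPARg d2 replicate 4 to 155 without vector d2 replicate 4, and was 12 without vector d2 replicate 2, 27 without vector d2 replicate 3, 27 without vector d4 replicate 4, 25 without PPARg d2 replicate 3 and 66 without PPARg d4 replicate 3. With 1 mean per group and session as the replicate it was 0 in limma, with 503 probe sets at an unadjusted p below 0.05.

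Of the 31 adipocyte markers tested, 8 passed as rising more with EBF1 than in vector cells and 1 as rising less, with a median difference of the steps of 0.40 against 0.04 over all genes. For PPARg2, 2 passed as rising more and none as rising less, with a median of 0.23 against -0.02. Lpl, Cidec, Fabp4 and Agt did not pass for EBF1 (0.53, 0.66, 0.62 and 0.11). Gpd1 went from 340 to 534 in vector cells and from 332 to 2218 in EBF1 cells, a difference of the steps of 2.04 ± 0.25 (adjusted p = 3.44e-07). Reep6 reached 391 in vector cells and 1300 with EBF1 (1.67 ± 0.29), and Adipoq 964 and 3975 (1.52 ± 0.29, adjusted p = 0.00076). Impdh1, a dehydrogenase of guanine nucleotide synthesis, rose with EBF1 from 152.5 to 565 and stood at 133 and 154 in vector cells (1.64 ± 0.19). S100a1, a calcium-binding protein, lay at the floor on all 4 vector d2 arrays and had d4 means of 78.3 in vector cells, 201 with PPARg2 and 310 with EBF1. Its difference of the steps was 1.89 ± 0.30 for EBF1 and 1.36 ± 0.30 for PPARg2. The d2 arrays of both inserts also lay under the floor (highest 26.6 and 29.8), so the size depends on it. With the floor at the 40th percentile the differences were 1.31 and 0.77, and that for PPARg2 did not pass (adjusted p = 0.161). Nabp1, a single-stranded DNA binding protein, showed 1.80 ± 0.29 with EBF1, whose d2 arrays lay under the floor (highest 51.4). With the higher floor this was 1.08. Other genes rose more or fell less in vector cells. Sult1a1 reached 674 in vector cells and 247 with EBF1 (-1.50 ± 0.27). Xdh, xanthine dehydrogenase, went from 707 to 534 in vector cells and from 846 to 264 with EBF1 (-1.31 ± 0.26). Il6st, the shared receptor subunit gp130, Pros1, the anticoagulant protein S, and Ptx3 showed differences of -1.44 ± 0.24, -1.36 ± 0.30 and -1.53 ± 0.41. The Ptx3 difference did not pass without vector d2 replicate 3 (-1.29) or 4 (-1.15), or without EBF1 d2 replicate 1 (-1.48) or 2 (-1.46).

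For PPARg2, 2 of the 17 acute phase, cytokine and chemokine genes passed, Hp and Cxcl5, both in the direction of a smaller fall, and the median difference of the list was 0.01. For Cxcl5 all 7 PPARg2 d4 arrays lay under the floor (highest 45.2), from a d2 mean of 73.3. The floor cuts its fall off there. Hp went from 1940 to 705 in vector cells and from 494 to 643 with PPARg2 (1.59 ± 0.35, adjusted p = 0.0164), while Sod2 went from 711 to 286 and from 415 to 391 (1.18 ± 0.25). In both genes the d4 ranges of the inserts overlapped or lay close, and the d2 levels were apart. Fam162a went from 486 to 310 in vector cells and from 353 to 568 with PPARg2 (1.26 ± 0.24, adjusted p = 0.00342), and Wdr92 from 2191 to 1661 and from 1395 to 2510 (1.29 ± 0.28). Without vector d2 replicate 1, without vector d2 replicate 2 or without PPARg d2 replicate 4, none of Hp, Sod2, Wdr92 and S100a1 passed for PPARg2, with differences of 1.26 to 1.48 for Hp, 1.06 to 1.14 for Sod2, 1.22 to 1.29 for Wdr92 and 1.36 for S100a1. Dpep1, a membrane dipeptidase, rose from 157 to 319 in vector cells and went from 176 to 215 with PPARg2 (-0.76 ± 0.16). Without session 3 its difference was -0.42 and did not pass (adjusted p = 0.19). It did not pass in 7 of 37 alternative settings, among them the fit of the compared groups only (adjusted p = 0.117). Psd was the other gene on this side (-0.58 ± 0.15, adjusted p = 0.0464), and it did not pass in 25 of 37 alternative settings.

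**Figure D5:**
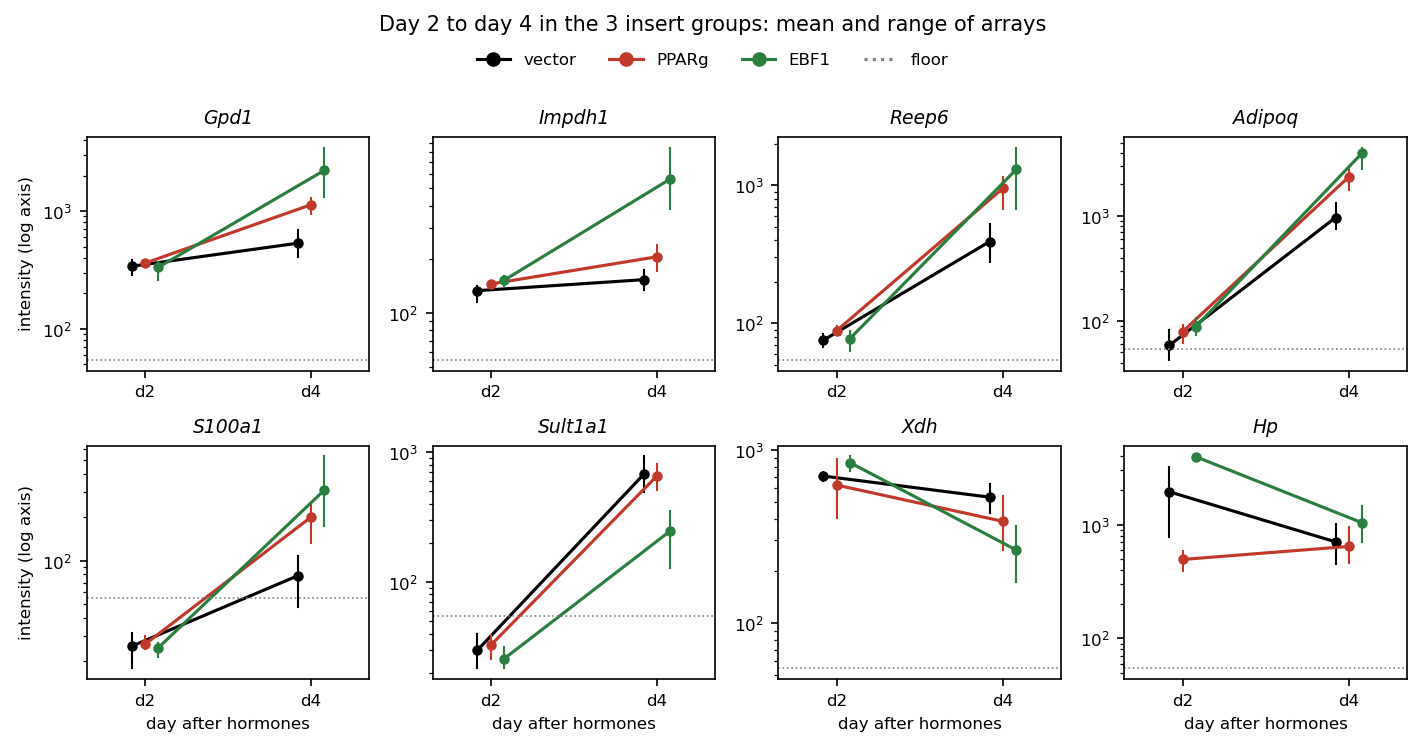
Mean intensity (log axis) at d2 and d4 of 8 genes in cells with vector (black), PPARg2 (red) and EBF1 (green), with vertical lines from the lowest to the highest array and a dotted line at the floor of 54.5. Gpd1 and Adipoq reach 534 and 964 in vector cells at d4 and 2218 and 3975 with EBF1, and Sult1a1 reaches 674 in vector cells and 247 with EBF1.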

How the data were processed

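The deposited table gives linear intensity values of 12488 probe sets on 53 arrays; the summarising algorithm and the scaling are not given in the sources used here. No further scaling was applied. Values were floored at the pooled 20th percentile (54.5), log2 was taken, and of the 12422 probe sets that are no controls, the 7619 that passed the pooled median (158) on 2 or more arrays were tested. Of the probe sets, 10833 had 1 gene symbol in the platform annotation, 396 several and 1193 none; each gene took its probe set with the highest mean.

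Differences came from limma 3.58.1 in R 4.3.3, in 1 fit of 12 group means over 53 arrays with an intensity trend, adjusted by Benjamini-Hochberg over probe sets. Lists were described by counts and medians. Data were simulated with the spread of these arrays, for 7619 probe sets and the vector d4 against d2 comparison. In them 67.2% of changes of 0.5 (log2), 98.5% of changes of 1 and 100% of changes of 2 were found, with 9 false calls. The simulated arrays were independent, without session effects or shared deviations. These rates therefore do not show how often calls are missed or false in the real arrays. The number of arrays limits the precision.

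Replicate numbers come from the array titles. Deviations of same-numbered d2 and d4 arrays correlated at 0.23 to 0.77 in vector cells and 0.38 to 0.55 in EBF1 cells. Arrays of other numbers correlated at -0.756 to 0.671 and -0.675 to 0.638, so the highest of these reached or passed same-numbered pairs. Same-numbered arrays were taken as pairs in the replicate block only, and the main fit used no pairing. The numbers also follow the session. In PPARg2 cells the same-numbered correlations ran from -0.02 to 0.25, which does not bear out a pairing by number. The replicate block of the PPARg2 comparison still paired these arrays by number. The session 3 arrays of d4 have no d2 array of their number. The replicate block therefore gives the same differences as the fit without session 3, with another estimate of the spread.

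Named genes were the 15 largest rises and 15 largest falls past the test without overlap of arrays, up to 4 genes each way per list, a panel of known genes, and the 5 largest differences each way per insert; not every gene the rule allows is printed. The genes and lists were chosen with earlier results of these data known. Leaving out 3 arrays that deviated together and averaging nearest arrays were alternatives chosen after seeing the data. Experiment files gave only the session. Promoter sequences are RefSeq's.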

Additional observations from a re-analysis of the deposited data

Results flagged for a closer look

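In 8 of 178 groups of arrays, 1 array stood apart from the others by a gap that chance gives in about 1 group in 20. The share of such groups was thus no higher than chance gives, and the 8 arrays are listed as description only. At d2, replicate 4 was high for Adipoq, the adiponectin gene (81.8, others 42.5 to 54.7), and low for Top2a, the replication topoisomerase (993, others 1329 to 1371), and for Etfa, the electron transfer flavoprotein (208, others 336 to 368). At d4, replicate 7 was the one array above the floor for Il13ra1 (64.4) and Cxcl5 (84.1), and it was high for the laminin chain Lama4 (837, others 374 to 468). Replicate 4 of d4 was low for Hmgcs1 (179, others 245 to 303), and replicate 1 for Mgst3 (1683, others 2313 to 2863).

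The step from d2 to d4 differed between the inserts, by the interaction test, for 27 genes named here with EBF1 and 14 with PPARg2. For EBF1 minus vector, genes of lipid, sterol and pyruvate metabolism and Adipoq differed by 2.04 (Gpd1), 1.57 (Fdps), 1.52 (Adipoq), 1.37 (Thrsp), 0.98 (Acaa2), 0.88 (Pdhb), 0.85 (Msmo1), 0.82 (Hmgcs1), 0.70 (Plin2) and -0.92 (Ugcg) on the log2 scale. Others with a larger step under EBF1 were S100a1 (1.89), Nabp1 (1.80), Reep6 (1.67), Impdh1 (1.64), Pparg (1.22) and Cavin2 (0.78). The other genes had a smaller rise or a larger fall under EBF1: Ptx3 (-1.53), Sult1a1 (-1.50), Il6st (-1.44), Pros1 (-1.36), Xdh (-1.31), Serpina3n (-0.96), Sgk1 (-0.92), Col6a3 (-0.75), Pqlc3 (-0.63), Fkbp5 (-0.53) and Socs3 (-0.48). For PPARg2 minus vector, genes that had fallen in vector cells differed by 1.59 (Hp), 1.26 (Fam162a), 1.18 (Sod2), 1.06 (Top2a), 1.02 (Il13ra1), 0.92 (Cxcl5) and 0.82 (Ugcg), and S100a1, Wdr92, Msmo1, Gpd1 and Fasn by 1.36, 1.29, 1.05, 1.01 and 0.68. Dpep1 (-0.76) and Psd (-0.58) went the other way.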

How the results depend on the processing

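Of 915 probe sets past the test, the count was 473 with the spread taken from the vector d2 and d4 arrays only, 218 in session 2 alone, 385 with 1 mean per group and session and 552 with the nearest arrays averaged. It ran from 646 to 1117 when single arrays were left out (646 without d2 replicate 1 and 1117 without d4 replicate 1) and was 873 with the replicate block, 928 with session as a block, 875 to 925 under other floors, 868 and 896 under other filters and 1115 after quantile normalization. Of the 83 named genes past the test, 46 kept direction and call in every alternative, 70 did so in all but the single sessions and the session means, and none of the 83 changed sign. The alternatives reuse the arrays on which these genes were chosen. With the replicate block, Lox (0.41) and Ebp (-0.52) were lost, Pparg (0.34) and Ebf1 (0.29) passed, and no other named gene of the vector comparison changed its call. Cebpa and Mki67, which did not pass, changed sign: Cebpa (-0.05) stood at 0.17 with the replicate block and without session 3, 0.0195 with session as a block, 0.22 and 0.12 in sessions 1 and 2, and ran from -0.15 to 0.0275 when single arrays were left out (above 0 without d2 replicate 1, d2 replicate 4 or d4 replicate 5), and Mki67 (-0.13) stood at 0.0516 with the replicate block and without session 3 and 0.18 in session 2. The cause was not tested in any of these cases.

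For PPARg2 minus vector, 43 probe sets became 77 after quantile normalization, 65 with the floor at the 40th percentile, 1395 with the replicate block, 145 with session as a block, 270 in session 1, 1 in session 2, 0 with session means, 1 with nearest arrays averaged, and 10 to 155 when single arrays were left out. For EBF1 minus vector, 253 became 395 after quantile normalization, 140 with the compared groups only, 607 with the replicate block, 494 with session as a block, 496 in session 1, 22 in session 2, 26 with session means, 132 with nearest arrays averaged, and 183 to 353 when single arrays were left out. The replicate block paired the PPARg2 arrays by number, although their same-numbered correlations ran only from -0.02 to 0.25. Intensities near the floor limit Fabp4, Pparg, Acta2, Idi1, Crabp1, Il13ra1, Cxcl5, Sult1a1, S100a1 and Nabp1. Acta2 and Crabp1 did not pass with the floor at the 40th percentile.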
